A study of Rattus norvegicus with 4 samples.

Results

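Basement membrane genes were examined in rat embryonic stem cells (ESCs) that lack *Thop1*. The genes were the laminin chains *Lama1*, *Lama5*, *Lamb1*, *Lamb2* and *Lamc1*, the nidogens *Nid1* and *Nid2*, the heparan sulfate proteoglycans *Hspg2* (perlecan) and *Agrn* (agrin), and the fibronectin gene *Fn1*. They were found by their symbols in the count table, where 9 of the 10 had a row among 34773 rows. *Hspg2* had none, and the loci that stand in its place are described after the other genes. All 9 passed the filter on low counts, as did 15028 genes in all.

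The study asked what changes in the transcriptome when *Thop1*, which encodes the zinc peptidase thimet oligopeptidase, is deleted. The control was 1 library of DA-5-3GFP, a rat ESC line with a GFP reporter at *Rex1*, labelled WT. The other 3 libraries came from *Thop1*-KO subclones #1, #2 and #3, which were picked as puromycin-resistant colonies of DA-5-3GFP after transfection with Cas9 and guide RNA, so that all 4 libraries carry the reporter. The cells were grown undifferentiated on feeder cells in 2i/LIF medium, which holds the inhibitors PD0325901 and CHIR99021 and the cytokine LIF. The series text calls the cells haploid, whereas the paper uses DA-5-3 as its diploid line. Each subclone is 1 clone, and the control is 1 culture of the parent line.

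Basement membranes are thin sheets of matrix that cells lay down under epithelia. A laminin is a trimer of 1 alpha, 1 beta and 1 gamma chain that is assembled in the cell and forms a network on the cell surface. Nidogen and perlecan link this network to one of type IV collagen. In the early embryo *Lama1*, *Lamb1* and *Lamc1* encode the chains of laminin-111, and *Lama5* encodes the alpha chain of laminin-511, a substrate on which pluripotent cells attach. Fibronectin is a separate fibril-forming protein that cells bind through integrins.

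Library totals ranged from 15405499 to 17936544 counts. *Thop1* itself was at 110, 92.5 and 149 CPM (counts scaled to equal library size) in subclones #1, #2 and #3 and at 370 CPM in the control, and its log2 fold change was -1.66 (SE 0.29, edgeR adjusted p = 0.0187). The ESC markers were present, with *Pou5f1* at 4502 ± 532 CPM (SD, n = 3) in the subclones and at 4794 CPM in the control. Because the control had 1 library, the spread behind each p-value came from the 3 subclones alone. An exact permutation test of 3 libraries against 1 cannot go below p = 0.25, so no such test was used. Long genes also tended to be higher in the subclones. The median log2 fold change was -0.47 among the 2799 genes under 1000 bases of exon and 0.38 among the 1970 genes of 4500 bases or more. The 9 genes found were 4562 to 11319 bases long. The log2 fold change of each is therefore also given after a correction of every library for gene length.

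The sequences before the start sites are shown for the most abundant laminin chain, *Lama1*, and for *Lama5* and *Lamc1*, the chains with the largest differences between the groups. They are the 250 bases before the RefSeq start in build GRCr8, written 5′ to 3′ on the strand of the gene, at chr9:115139298-115139547 (plus strand) for *Lama1*, chr3:187695975-187696224 (minus strand) for *Lama5* and chr13:68051987-68052236 (minus strand) for *Lamc1*. Capitals mark the GC box, GGGCGG or its reverse complement CCGCCC, a motif bound by SP-family factors.
Lama1: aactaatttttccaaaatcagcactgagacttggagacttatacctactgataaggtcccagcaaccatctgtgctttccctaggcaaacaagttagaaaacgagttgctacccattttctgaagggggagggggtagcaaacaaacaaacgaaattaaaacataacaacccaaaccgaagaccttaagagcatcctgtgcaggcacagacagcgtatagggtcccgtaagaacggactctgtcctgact
Lama5: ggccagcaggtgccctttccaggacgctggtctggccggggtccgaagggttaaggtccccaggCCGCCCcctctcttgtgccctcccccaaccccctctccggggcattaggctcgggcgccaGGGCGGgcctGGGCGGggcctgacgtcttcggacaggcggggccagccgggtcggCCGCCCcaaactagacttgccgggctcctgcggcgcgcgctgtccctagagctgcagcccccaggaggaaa
Lamc1: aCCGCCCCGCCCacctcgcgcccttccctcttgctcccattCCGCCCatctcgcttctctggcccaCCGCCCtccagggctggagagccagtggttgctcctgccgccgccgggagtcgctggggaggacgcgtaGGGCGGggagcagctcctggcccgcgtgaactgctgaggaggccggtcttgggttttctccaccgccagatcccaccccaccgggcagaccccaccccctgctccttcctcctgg
The *Lama1* stretch held no GC box and was 44.8% G or C. *Lama5* had 4 GC boxes at 72.8% G or C, and *Lamc1* had 5 at 71.2%, of which the leftmost pair share 1 base. Of the 7 genes with a match in the table, 5 held a GC box, and so did 30.5% of 33469 rat upstream stretches of the same length. No gene of the 7 had the TATA box TATAAA on either strand, which 12.9% of all had. *Lamb2*, *Nid2* and *Fn1* had no match.

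The basement membrane genes were mostly higher in *Thop1*-KO cells. *Lamc1*, *Lama5*, *Lamb1* and *Fn1* rose, by 1.22 to 2.36 on the log2 scale, and no gene of the 9 fell. *Lamb2*, *Lama1*, *Agrn* and *Nid2* lay above the control in every subclone without passing the test, and *Nid1* did not separate the groups. Thus 4 of 9 genes passed an edgeR adjusted p of 0.05 in the upward direction, where 8.62% of all genes tested did (13.8% in either direction). Among genes of 4500 bases or more the upward share was 11.5%. The genes were chosen with earlier results of these data known, so these shares are a description only. All 3 subclones were above the control for 8 of the 9 genes, as they were for 38.1% of all genes tested. The median log2 fold change of the 9 genes was 1.22, against 0.06 over all genes. After the length correction the same 4 genes passed, where 7.58% of all genes were called higher, and the medians were 0.85 and 0.00.

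**Figure D1:**
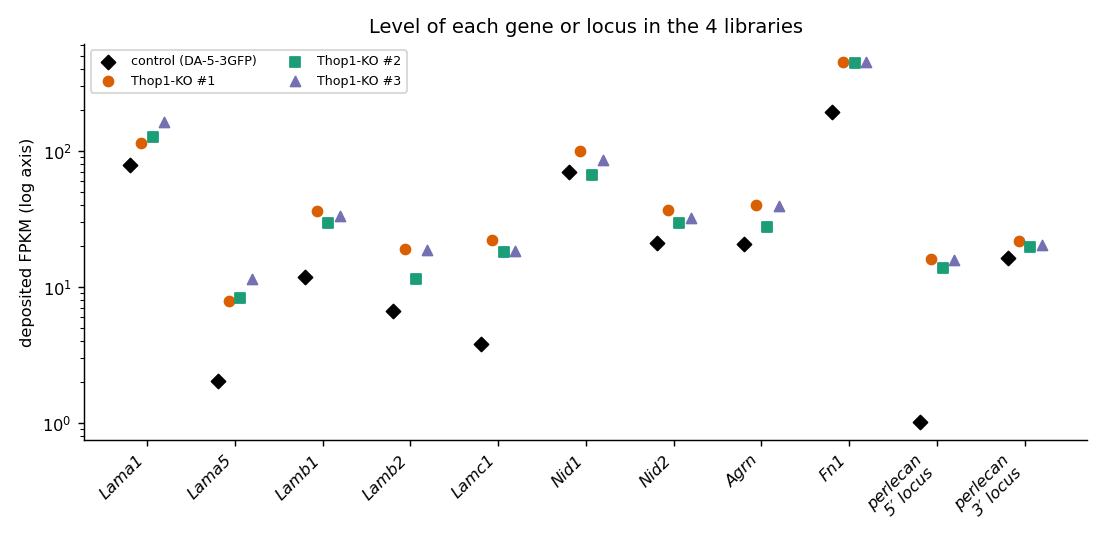
Deposited FPKM (log axis) of each gene and of the perlecan loci in the 4 libraries, 1 point per library. The control point lies below all 3 subclones for every gene shown except *Nid1*, where it lies inside their range.

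*Lamc1* encodes the gamma 1 chain, which nearly all laminins of the early embryo share. The gene (chromosome 13, 70658707 to 70783515, minus strand) had 345 counts in the control and 2264, 1933 and 2035 in subclones #1, #2 and #3. Per length this was 22.4, 18.0 and 18.4 FPKM (fragments per kilobase of exon, scaled for depth) against 3.82 FPKM. The subclones lay close together and far above the control. The log2 fold change was 2.36 (SE 0.30, 95% interval 1.65 to 3.07, edgeR adjusted p = 0.00870), and 2.03 after the length correction (edgeR adjusted p = 0.0162). Its place among the genes tested, ranked by FPKM, was at the 47.5th percentile in the control and between the 72.9th and the 75.1st in the subclones. *Lamc1* kept its call under every alternative tried.

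*Lama5* (chromosome 3, 175553045 to 175601127, minus strand) was the least abundant of the 9 genes in every library. It was at 7.93, 8.29 and 11.5 FPKM in the subclones and at 2.05 FPKM in the control. Subclone #3 was the highest and the control the lowest, with no overlap. The log2 fold change was 2.17 (SE 0.35, 95% interval 1.33 to 3.02, edgeR adjusted p = 0.0159), or 1.81 corrected for length (edgeR adjusted p = 0.0208). *Lama1* encodes the other alpha chain measured here and was far more abundant. This gene (chromosome 9, 115916907 to 116042123, plus strand) was at 114, 127 and 164 FPKM in the subclones and at 79.2 FPKM in the control. All subclones were above the control, but they spread 1.46-fold among themselves. The log2 fold change of 0.78 (SE 0.27, 95% interval 0.12 to 1.43) did not pass the test (edgeR adjusted p = 0.101), and it was 0.41 after the length correction.

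The beta chains differed in how tightly the subclones grouped. *Lamb1* (chromosome 6, 50528823 to 50596079, plus strand), the beta chain of laminin-111, was at 36.4, 29.3 and 33.4 FPKM in the subclones and at 11.8 FPKM in the control. Its log2 fold change was 1.49 (SE 0.27, 95% interval 0.85 to 2.12, edgeR adjusted p = 0.0200), and 1.16 with the length correction (edgeR adjusted p = 0.0445). *Lamb2* (chromosome 8, 117268337 to 117280517, plus strand), known from the laminins of kidney and muscle, was at 18.9, 11.5 and 18.6 FPKM against 6.67 FPKM. Subclone #2 was set apart from #1 and #3, and the coefficient of variation over the subclones, 25.8%, was the highest of the 9 genes. Its log2 fold change of 1.29 (SE 0.37, 95% interval 0.40 to 2.18) missed the threshold (edgeR adjusted p = 0.0641). After the length correction it was 0.97 (edgeR adjusted p = 0.144). DESeq2 called *Lamb2* higher (adjusted p = 0.00730) beside the other 4 genes, where it called 14.2% of all genes it tested higher.

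*Fn1* was the most abundant of the genes in all 4 libraries. The gene (chromosome 9, 78900103 to 78969078, minus strand) was at 449, 442 and 451 FPKM in the subclones and at 193 FPKM in the control. The subclones agreed to within 1.03-fold, the narrowest spread of the 9, and the control was 2.32-fold below their mean. This gave a log2 fold change of 1.22 (SE 0.19, 95% interval 0.76 to 1.67, edgeR adjusted p = 0.0145), and 0.85 corrected for length (edgeR adjusted p = 0.0401). An annotated locus on the opposite strand overlaps *Fn1* and had at most 12 counts in any library.

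The nidogens and agrin did not pass the test. *Nid1* (chromosome 17, 90553394 to 90627101, minus strand), which binds the gamma 1 chain and type IV collagen, was at 99.2, 66.1 and 85.9 FPKM in the subclones and at 70.7 FPKM in the control. The control thus lay above subclone #2 and below #1 and #3. The log2 fold change was 0.25 with a 95% interval of -0.41 to 0.91 (edgeR adjusted p = 0.555), and the length correction turned it to -0.07. *Nid2* (chromosome 15, 4894213 to 4951917, minus strand), its paralog, was at 36.7, 29.4 and 32.2 FPKM against 21.1 FPKM. The control was below all subclones, and the log2 fold change of 0.64 (95% interval 0.03 to 1.24) did not pass (edgeR adjusted p = 0.133). Corrected for length, the log2 fold change was 0.33 (edgeR adjusted p = 0.417). *Agrn* (chromosome 5, 173589819 to 173622645, minus strand), a proteoglycan that binds laminin and dystroglycan, was at 40.3, 27.5 and 39.1 FPKM against 20.8 FPKM. Subclone #2 was the one nearest the control. The log2 fold change was 0.78 (95% interval 0.07 to 1.49, edgeR adjusted p = 0.122), and 0.43 with the length correction (edgeR adjusted p = 0.393).

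**Figure D2:**
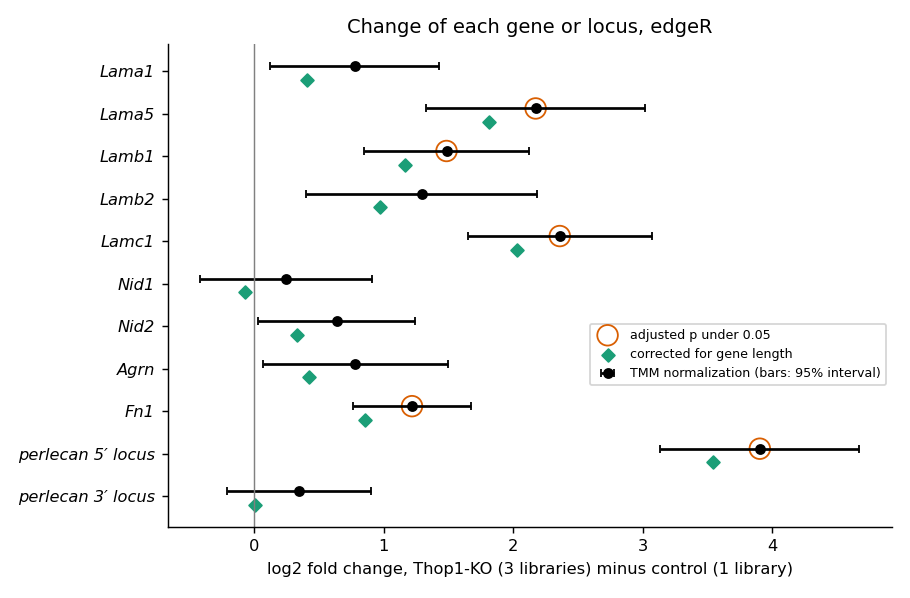
Log2 fold change of each gene and perlecan locus, 3 *Thop1*-KO libraries minus 1 control library, with its 95% interval from edgeR (black) and the value corrected for gene length (green diamonds). Open circles mark an adjusted p under 0.05, which *Lamc1*, *Lama5*, *Lamb1*, *Fn1* and the 5′ perlecan locus reached, and every corrected value lies to the left of the uncorrected one.

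The subclones were not alike. Subclone #2 had the lowest level of the 3 for 7 of the 9 genes and the highest for 0, by CPM. *Lama1* and *Lama5* were lowest in #1. Without subclone #2, *Lama1* (edgeR adjusted p = 0.0133), *Lamb2* (4.4e-04), *Agrn* (0.00311) and *Nid2* (0.0204) also passed, making 8 of 9. Without subclone #3, *Fn1* (edgeR adjusted p = 0.0755) and *Lamb1* (0.0872) no longer did, which left 2 of 9. The number of calls over all genes moved in the same way, from 2072 to 5572 without #2 and to 457 without #3. The share of all genes called higher was not computed for these fits. Thus 8 of 9 and 2 of 9 are not to be read against the share from the fit with all 3 subclones. The direction of the 9 genes did not turn in any of these fits.

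**Figure D3:**
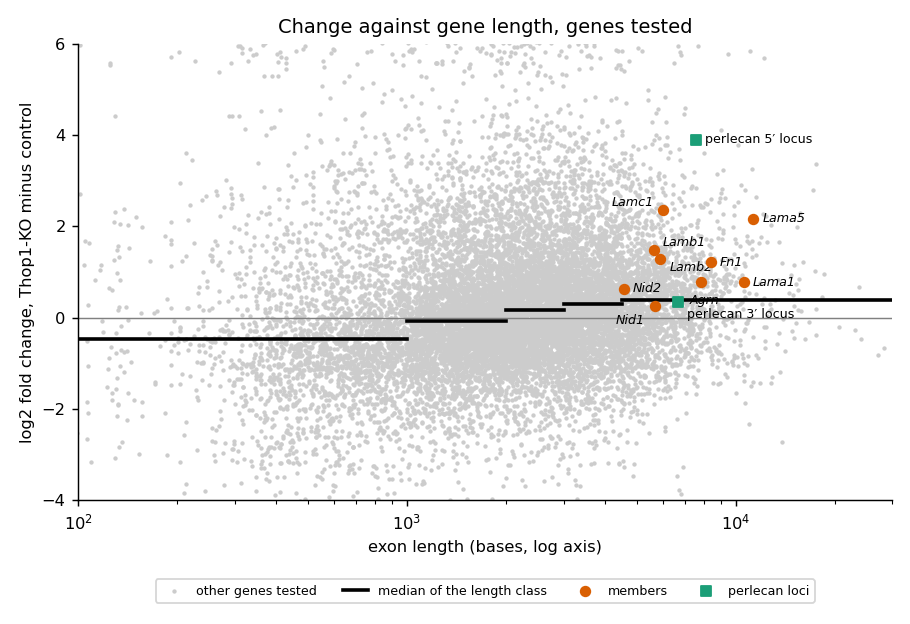
Log2 fold change (*Thop1*-KO minus control) against exon length (log axis) for the genes tested, with the median of each of 5 length classes as a black line, where 488 of 15028 genes lie outside the plotted range. The class medians climb from -0.47 to 0.38, and 8 of the 9 genes lie above the line of their class, with *Nid1* below it.

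Perlecan had no row under the symbol *Hspg2*, and these loci were looked up after values had been seen. RefSeq gives AABR07073181.1 as a synonym of *Hspg2*, and that locus (ENSRNOG00000021437) lies on chromosome 5 from 155812105 to 155885829, plus strand. A locus that the authors added and describe by homology as perlecan begins 163 bases further on, from 155885992 to 155913495 on the same strand. Together they span 101391 bases, and RefSeq's *Hspg2* spans 101154 bases in its own build. The 5′ locus had 116 counts in the control and 2043, 1864 and 2223 in the subclones. The 3′ locus had 1639 counts in the control and 2478, 2359 and 2512 in the subclones. The groups were therefore far apart at the 5′ locus and much nearer at the 3′ locus. At the 5′ locus the log2 fold change was 3.90 (SE 0.32, 95% interval 3.13 to 4.67, edgeR adjusted p = 0.00678). At the 3′ locus it was 0.35 (SE 0.23, 95% interval -0.21 to 0.91, edgeR adjusted p = 0.329). With the length correction the 5′ locus was at 3.55 (edgeR adjusted p = 0.00845) and the 3′ locus at 0.0027 (edgeR adjusted p = 0.996). Per base, the counts of the 5′ locus were 73.6% ± 4.24 (SD, n = 3) of those of the 3′ locus in the subclones and 6.25% in the control. If the loci are parts of a single gene, its level therefore differs between the groups by an amount that depends on which end is counted. Whether the control library covers the 5′ end of the other long genes equally cannot be read from counts per gene, and the part of this in the values above was not tested.

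Ranked by FPKM, *Fn1* came first, *Lama1* second, *Nid1* next and *Lama5* last in all 4 libraries. The means over the subclones were 447 ± 4.66 FPKM for *Fn1*, 135 ± 25.9 for *Lama1* and 83.7 ± 16.6 for *Nid1* (SD, n = 3), and these 3 ranges did not overlap. *Agrn* (35.7 ± 7.08 FPKM), *Lamb1* (33.0 ± 3.55 FPKM) and *Nid2* (32.8 ± 3.70 FPKM) did not differ beyond their spread. Neither did *Lamc1* (19.6 ± 2.40 FPKM) and *Lamb2* (16.3 ± 4.19 FPKM). *Lama5* (9.23 ± 1.96 FPKM) met the lower end of *Lamb2*.

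The make-up of the chains differed between the groups, as a description without a test. *Lama1* made up 93.5%, 93.9% and 93.5% of the alpha chain FPKM (*Lama1* plus *Lama5*) in the subclones and 97.5% in the control. The summed alpha chains stood at 5.46, 7.52 and 9.54 times the level of *Lamc1* in the subclones and at 21.3 times in the control. For the beta chains (*Lamb1* plus *Lamb2*) the ratios to *Lamc1* were 2.48, 2.27 and 2.82 against 4.84, and for the nidogens 6.08, 5.31 and 6.41 against 24.0. *Lamc1*, the divisor, rose the most of the 9 genes, so a gene that rose less gives a lower ratio. All of these ratios were lower in every subclone than in the control. *Lama5* was the exception, at 0.355, 0.460 and 0.624 times *Lamc1* in the subclones and 0.538 times in the control. *Lamb1* supplied 65.8%, 71.9% and 64.2% of the beta chain FPKM against 63.9%.

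**Figure D4:**
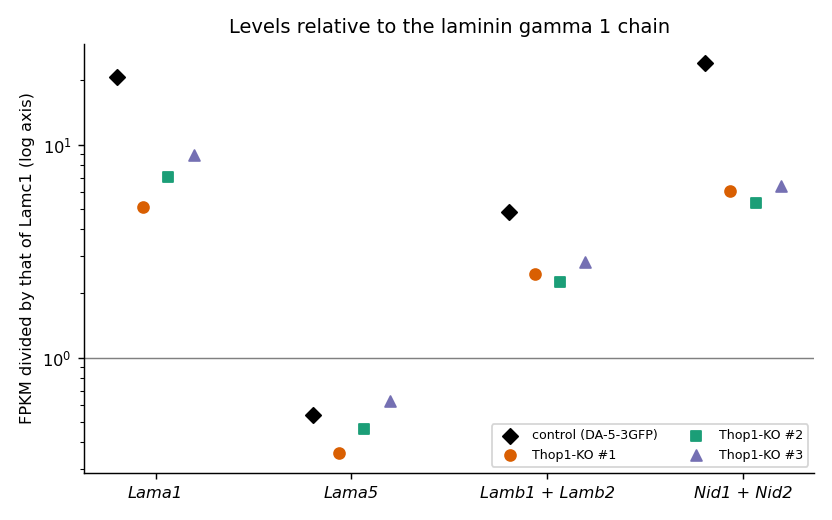
FPKM of *Lama1*, *Lama5*, the beta chains and the nidogens divided by the FPKM of *Lamc1* (log axis) in the 4 libraries, 1 point per library. The control is above all subclones except for *Lama5*, where its 0.538 lies between 0.355 and 0.624.

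The genes around these proteins were read from 7 lists, of which 84 genes were tested, 15 rose and 2 fell by edgeR. These 17 are 20.2% of the genes tested, where 13.8% of all genes were called in either direction and 8.62% higher. The counts by list are to be read against those shares. As the lists were chosen with earlier results of these data known, such comparisons are a description only. The other laminin chains were scarce. Of 6 listed chains 4 were tested and 0 passed the test by edgeR, with 0 at an unadjusted p under 0.05. DESeq2 called 0 of these chains. Over the 7 lists it called 27 genes in either direction in place of 17. Over all genes DESeq2 called 3006 of 13973 in either direction, where edgeR called 2072 of 15028.

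*Col4a1*, which encodes the alpha 1 chain of type IV collagen, was scarce. The gene was at 0.459, 0.289 and 0.412 FPKM in the subclones and at 0.716 FPKM in the control, so that *Lama1* stood 110.5 to 440.5 times higher per length. *Col4a2*, which encodes its partner chain, was at 2.17, 7.23 and 3.31 FPKM against 1.63 FPKM. Both were picked out here after their values were seen, and neither passed the test. Of the 13 collagen IV genes and makers, 10 were tested, 3 rose (30% of those tested, against 8.62% of all genes) and 0 fell. *P4ha1*, a prolyl hydroxylase subunit needed for a stable triple helix, rose by 1.96 on the log2 scale (edgeR adjusted p = 0.0275). *Pxdn*, the peroxidasin that crosslinks collagen IV, had 35, 92 and 68 counts against 6 (log2 fold change 3.17, edgeR adjusted p = 0.0498) and lost its call with the length correction. *Col4a5* was also called, on 32, 102 and 54 counts against 1, a ratio of 53.3 with an exact binomial 95% interval of 9.45 to 2116 that covers counting error only.

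Other basement membrane components had 4 genes called higher by edgeR of 10 tested and 18 listed (40% of those tested, against 8.62% of all genes), and 0 lower. DESeq2 called 6, adding *Sparc* and *Fbln1*. *Ntn1*, the laminin-related guidance protein netrin 1, rose from 2.65 FPKM to 39.6, 32.0 and 50.8 FPKM (log2 fold change 3.95, SE 0.43, edgeR adjusted p = 0.00705). *Fras1*, an extracellular protein of embryonic basement membranes, rose by 2.64 on the log2 scale (edgeR adjusted p = 0.0104). *Fbln2*, fibulin 2, had 257, 680 and 422 counts against 25 (log2 fold change 3.93, edgeR adjusted p = 0.0192), with subclone #2 the highest. These 3 calls held with the length correction, and that of *Npnt*, with 1 count in the control, did not.

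Receptors for laminin, fibronectin and perlecan moved in both directions. Of 22 listed 16 were tested, 4 rose (25% of those tested, against 8.62% of all genes) and 1 fell by edgeR, and DESeq2 called 6 higher and 1 lower, adding *Dag1* and *Unc5b*. *Itgav*, *Itgb5* and *Itga5* encode subunits of integrins that bind fibronectin or vitronectin. *Itgb5* rose from 4.35 FPKM to 17.6, 14.5 and 18.7 FPKM (log2 fold change 1.96, edgeR adjusted p = 0.0152). *Itga5*, the alpha subunit of the classical fibronectin receptor, rose by 2.44 (edgeR adjusted p = 0.0195). *Itgav* rose from 6 counts to 97, 88 and 126 counts (log2 fold change 3.85, edgeR adjusted p = 0.0147). *Sdc4*, a heparan sulfate proteoglycan of focal adhesions, fell from 200 counts to 22, 44 and 22 counts (log2 fold change -3.00, edgeR adjusted p = 0.0156). *Sdc1*, another syndecan, also rose (edgeR adjusted p = 0.0486) and lost its call with the length correction. Among the more abundant genes of the list, 4 that were picked out after their values were seen were not called by edgeR. *Itgb5*, which was called, was level with *Bcam*, 1 of these 4, by mean CPM over the subclones (66.9 and 66.8). *Bcam*, a receptor for laminins with the alpha 5 chain, was at 45.5, 10.2 and 25.7 FPKM in the subclones and at 10.97 FPKM in the control, which lay inside their range, with an edgeR adjusted p of 0.261. *Itga7* was at 44.1, 36.9 and 47.0 FPKM against 31.7 FPKM, *Dag1* (dystroglycan) at 36.9, 33.1 and 34.4 against 19.1 (adjusted p = 0.0571 by edgeR and 0.0345 by DESeq2), and *Itgb1* at 17.4, 32.3 and 20.8 against 23.1.

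**Figure D5:**
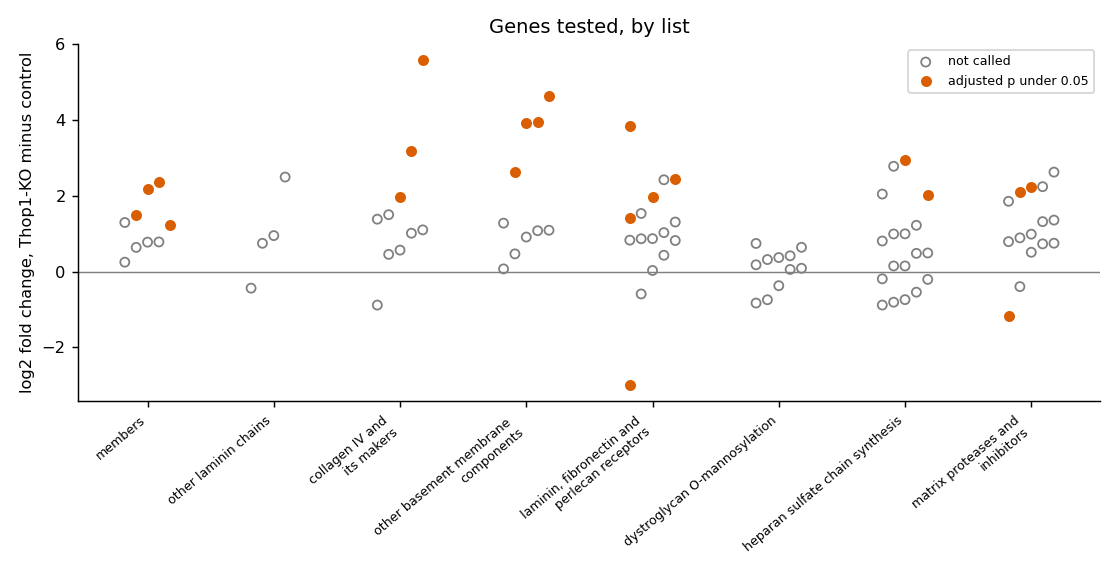
Log2 fold change (*Thop1*-KO minus control) of each gene tested, by list, with genes of an edgeR adjusted p under 0.05 filled. Of the members 4 of 9 are filled and of the other lists 17 of 84, 2 of them below 0.

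The enzymes that build sugar chains on these proteins were read as 2 lists. Of the 13 dystroglycan O-mannosylation genes, which make the glycan that laminin, agrin and perlecan bind, 11 were tested and 0 passed by edgeR, with 0 at an unadjusted p under 0.05. *B3galnt2* had the smallest p (log2 fold change -0.83, edgeR adjusted p = 0.207). In heparan sulfate chain synthesis 2 of 18 genes tested rose by edgeR and 0 fell, a share of 11.1% higher against 8.62% of all genes, and DESeq2 called 6 higher, adding *Xylt2*, *Ext1*, *Ndst1* and *Hs6st1*. The edgeR calls were *Extl3*, which starts the chain (log2 fold change 2.01, edgeR adjusted p = 0.0279), and *Extl1* (2.94, edgeR adjusted p = 0.0368), whose call was lost with the length correction.

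Among 15 matrix proteases and inhibitors tested, 2 rose and 1 fell by edgeR, or 13.3% higher and 20% in either direction, against 8.62% and 13.8% of all genes. DESeq2 called 4 higher and 1 lower, adding *Adam10* and *Htra1*. *Mmp14*, a membrane-bound protease that cleaves fibronectin and laminins, rose from 14.3 FPKM to 54.3, 67.5 and 61.2 FPKM (log2 fold change 2.10, edgeR adjusted p = 0.00999). *Timp3*, an inhibitor held in the matrix, rose from 5.77 FPKM to 25.8, 33.5 and 21.7 FPKM (log2 fold change 2.23, edgeR adjusted p = 0.0177). *Timp1*, a secreted inhibitor, fell from 639 FPKM to 359, 237 and 255 FPKM (log2 fold change -1.17, edgeR adjusted p = 0.0380). It is 740 bases long, lost its call with the length correction, and overlaps *Syn1*, which had at most 82 counts, on the other strand.

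Marker lists were read for the other cells such a culture could hold, because in bulk RNA fewer cells of a type and less RNA per cell cannot be told apart. Primitive and parietal endoderm cells are known for strong laminin-111 output. Of 14 endoderm markers 7 were tested and 0 were called by edgeR (3 at an unadjusted p under 0.05). Their summed level was 11.7, 11.4 and 10.5 CPM in the subclones and 10.4 CPM in the control, with *Lrp2* the most abundant at 3.12 ± 0.73 CPM (SD, n = 3) against 2.76 CPM. The median log2 fold change of the 7 was 1.71. Of them 4 were above the control in every subclone, as were 38.1% of all genes tested, and 2 were below it. *Sox17* had 34, 37 and 47 counts against 10, *Dab2* 8, 22 and 9 against 0, and *Gata6* 63, 24 and 16 against 9, while *Gata4* had 3, 0 and 3 against 17. DESeq2 called 0 of the list. Fibroblast markers, which feeder cells would carry, summed to 466, 914 and 603 CPM in the subclones and to 275 CPM in the control. Of 16 listed 12 were tested and 1 rose by edgeR (8.33% of those tested, against 8.62% of all genes). This was *Col5a1* (log2 fold change 1.63, edgeR adjusted p = 0.0399, not called after the length correction). The median log2 fold change of the 12 was 1.32. Of them 8 were above the control in every subclone, as were 38.1% of all genes tested, and 1 was below it. An unadjusted p under 0.05 was reached by 5 of the 12. The share of all genes at that unadjusted p was not counted. Neither this count nor that of the endoderm markers can be set against it. *Col1a1*, the most abundant of them, was at 411 ± 130 CPM (SD, n = 3) against 190 CPM (edgeR adjusted p = 0.0921, called by DESeq2 together with *Loxl1*), and *Lum*, *Dcn* and *Thy1* had 0 counts in all 4 libraries. The fibroblast sum was lowest in the control, where 8 of the 9 genes were also below all subclones. Among the subclones the sum was highest in #2, where 7 of the 9 genes were lowest and *Fn1* was within 1.03-fold of the others. By CPM, *Col4a5*, *Pxdn* and *Fbln2* were also highest in #2. The other genes called higher in the same lists, *P4ha1*, *Ntn1*, *Fras1* and *Npnt*, were not. The part of fibroblast or endoderm cells in the higher levels of the 9 genes and of the listed genes was not tested. Of 12 ESC markers listed, *Zfp42* had no row by symbol and 11 were tested. *Fgf4* (log2 fold change 3.37) and *Sall4* (2.72) rose, and *Utf1* (-1.51) and *Dppa5* (-1.02) fell, the last not with the length correction. By edgeR 36.4% of the 11 were thus called in either direction, against 13.8% of all genes. The share called higher was 18.2%, against 8.62%. The summed level of the 11 ESC markers was 7456, 6172 and 7485 CPM in the subclones and 8222 CPM in the control.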

How the data were processed

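RNA-seq was performed on 1 DA-5-3GFP library and 3 *Thop1*-KO subclone libraries, made from poly-A RNA. The authors deposited raw counts per gene and FPKM values, in separate tables. The submitters' processing notes name HISAT2 2.0.5 and featureCounts 1.5.0-p3. The genome build and use of strand are not given in the sources used here, and coordinates are those of the deposited table.

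The count table was tested in R 4.3.3 by edgeR 4.0.16 (filterByExpr with a minimum count of 10, TMM, quasi-likelihood test, Benjamini-Hochberg adjustment over 15028 genes, threshold 0.05). CPM are TMM-normalized. The dispersion came from the 3 subclones, with edgeR sharing information across genes. The p-values set the difference from the 1 control library against that spread, and the spread between control cultures was not measured. For the length correction each library was fitted by loess (span 0.3) of log counts on exon length, and the fits entered edgeR as offsets, so any true trend with length is removed too. Alternatives were other scalings and filters, DESeq2 1.42.0, limma 3.58.1 on log2 of FPKM plus 1 or plus 0.1, and leaving out each subclone. The libraries were compared pairwise, and no pair agreed within sampling noise. Scripts were tested on simulated data.

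Members and lists were chosen with earlier results of these data known. Named genes were all members, *Thop1*, up to 3 called genes per direction of each pathway list by p (or else the smallest p), called markers and the most abundant marker, and the 3 genes closest to the mean laminin-111 pattern. Genes named outside this rule (*Col4a1*, *Col4a2*, *Npnt*, *Sdc1*, *Bcam*, *Itga7*, *Dag1*, *Itgb1*, *Sox17*, *Dab2*, *Gata6*, *Gata4*, *Lum*, *Dcn*, *Thy1*, genes added by DESeq2 alone) were chosen after their values were seen, and 1 gene the rule names is not reported here. *Zfp42* is named only because it had no row by symbol. Upstream sequences came from RefSeq (GRCr8), for 7 of 10 genes by symbol. The deposited tables held no other samples. The share of genes of 4500 bases or more that were called, the perlecan loci and the neighbouring pairs of loci were added after the data were seen.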

Additional observations from a re-analysis of the deposited data

How the results depend on the processing

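Of 117 comparisons of a member's log2 fold change with an alternative, 106 kept their direction and side of the threshold, 6 newly passed, 4 no longer passed and 1 turned (*Nid1*, a log2 fold change of -0.0739 corrected for gene length). The newly called were *Lamb2* by library size only (edgeR adjusted p = 0.0438) and by DESeq2, and the 4 genes given above without subclone #2. Without a filter, limma on log2(FPKM + 1) called 2 members, losing *Lama5* (limma adjusted p = 0.0771) and *Lamb1* (0.0575), 872 genes in all and 2 of the pathway lists. The lists had 27 calls by DESeq2 and 11 by limma on log2(FPKM + 1). Leaving out each subclone in turn gave 2 to 8 members, 457 to 5572 genes and 5 to 40 genes of the lists. The causes were not tested. The Lama1 share of the alpha chains was 93.6% on average over the subclones and 93.2% by counts without length division. Scaling moved the median of all genes from 0.06 to between -0.04 (upper quartile) and 0.13 (library size). DEGs were 1295 higher and 777 lower, and 1029 and 879 by limma on log2(FPKM + 1), and 332 and 540 by limma without a filter. DESeq2 called 1987 higher and 1019 lower. No paired analysis was possible because the control has 1 library. With 1 control library, the genotype and that library cannot be told apart, and the lowest count of a member, 345, sets the counting precision.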

Other observations

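The genes whose 3 differences from the control lay closest to the mean of *Lama1*, *Lamb1* and *Lamc1* were *Slc30a9* (root mean square distance 0.0511 on the log2 CPM scale), *Ints11* (0.0511) and *Apba3* (0.0534), among 7637 genes of at least 10 CPM outside the lists. The likeness rests on 3 libraries against 1, and 161 genes lay within 0.25. The mean differences were 1.55, 1.40 and 1.61 in subclones #1, #2 and #3. These lay near those of *Lamb1* (1.61, 1.30 and 1.51) but not near *Lama1* (0.518, 0.682 and 1.07) or *Lamc1* (2.51, 2.21 and 2.26). Likeness to the mean is therefore not likeness to each of the 3 chains.

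The contrast between the perlecan loci led to a count of other same-strand pairs of an annotated locus and a locus added by the authors within 1000 bases of each other, with both tested. There were 53 such pairs beside perlecan. The upstream locus had the larger log2 fold change (*Thop1*-KO minus control) in 36, and the median of upstream minus downstream was 1.26. For perlecan it was 3.56, and 13 of the 53 other pairs were at or above that value. In most of the other pairs the locus added by the authors was the upstream one, whereas at perlecan it was the downstream one. Both arrangements were counted together, so the place of perlecan among these pairs is a description only. These pairs were not checked to be parts of single genes.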
